A study of Capra hircus with 20 samples.

Results

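Collagens are the fibrous and network-forming proteins of the extracellular matrix, and each is built from chains wound into a triple helix. A chain gene was taken here as any gene whose symbol is COL, a number, A and a number. This rule gave 44 chain genes of the 21071 genes with an FPKM value, a level in which fragments are scaled to the length of the exons and to the depth of the library. They were divided by the textbook class of their protein into 11 fibrillar chains, 6 basement membrane chains, 5 beaded-filament chains, 3 short-chain network chains, 10 FACIT chains (fibril-associated collagens with interrupted triple helices), 4 transmembrane chains and 5 multiplexins and others. A total of 43 chains reached 0.1 FPKM in at least 5 of the 20 libraries and were tested. COL20A1 did not.

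Fibrillar collagens such as types I and III give tensile strength to connective tissue, while type IV collagen forms the sheet-like network of basement membranes. In the brain, fibrillar chains are known mainly from the meninges and the connective tissue around larger vessels, and type IV collagen from the basement membrane of vessels and of the brain surface. Other collagens decorate fibrils, form beaded filaments or sit in the plasma membrane of cells, neurons among them.

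The hypothalamus of 20 healthy female Jining grey goats, an early-maturing breed, was sequenced with 1 strand-specific, rRNA-depleted library per goat. The stages were D1 (day 1), M2 (day 60), M4 (day 120) and M6 (day 180), with 5 goats each, untreated, kept under the same feeding and slaughtered on the same day. The study asked how hypothalamic transcripts change from birth to sexual maturity. Stages were therefore compared between different goats, and p-values set a difference between stages against the spread between goats within stages.

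The libraries differed in ways that the stage did not explain. Of 8 hypothalamic marker genes, such as OXT and AVP (oxytocin and vasopressin), 3 M4 libraries held none at 1 FPKM or more, and the summed level of the 8 ran from 1.26 FPKM in M4 replicate 5 to 915 FPKM in M6 replicate 5. Only D1 replicate 1 held all 8 at 1 FPKM or more. AVP was above 0 in every library, whereas OXT was listed at 0 in 6 libraries and HCRT (orexin) in 6. Pituitary markers summed to at most 1.65 FPKM, with GH1, TSHB and POU1F1 at 0 in M2 replicate 3, the library with the highest sum. In that same library KLHDC1 alone held 23.9% of all FPKM. In bulk tissue, fewer cells of a type and less RNA per cell cannot be told apart.

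The 44 chains together were a small part of the transcriptome. Their summed FPKM ran from 68.7 in M4 replicate 1 to 527 in M2 replicate 3, or from 0.0225% to 0.149% of all FPKM. In the order of the mean over 20 libraries, 11 chains were at 5 FPKM or more, 23 between 1 and 5 FPKM and 10 below 1 FPKM. All libraries had a value above 0 for 39 chains, and 14 chains were at 1 FPKM or more in all 20. For 4 low chains, over 50% of the summed FPKM came from 1 library: COL23A1 (M2 replicate 1), COL6A6 (M2 replicate 1), COL19A1 (M4 replicate 1) and COL20A1 (M6 replicate 2).

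The highest chain was not a fibrillar one. COL9A2, a chain of the FACIT type IX collagen, averaged 37.5 FPKM, followed by the fibrillar chains COL1A2 (17.9 FPKM) of type I and COL3A1 (11.5 FPKM) of type III collagen. Next came COL9A3 (9.73 FPKM), COL11A1 (9.26 FPKM) and COL16A1 (8.78 FPKM). The type IV chains COL4A2 and COL4A1 averaged 5.19 and 5.11 FPKM.

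**Figure D1:**
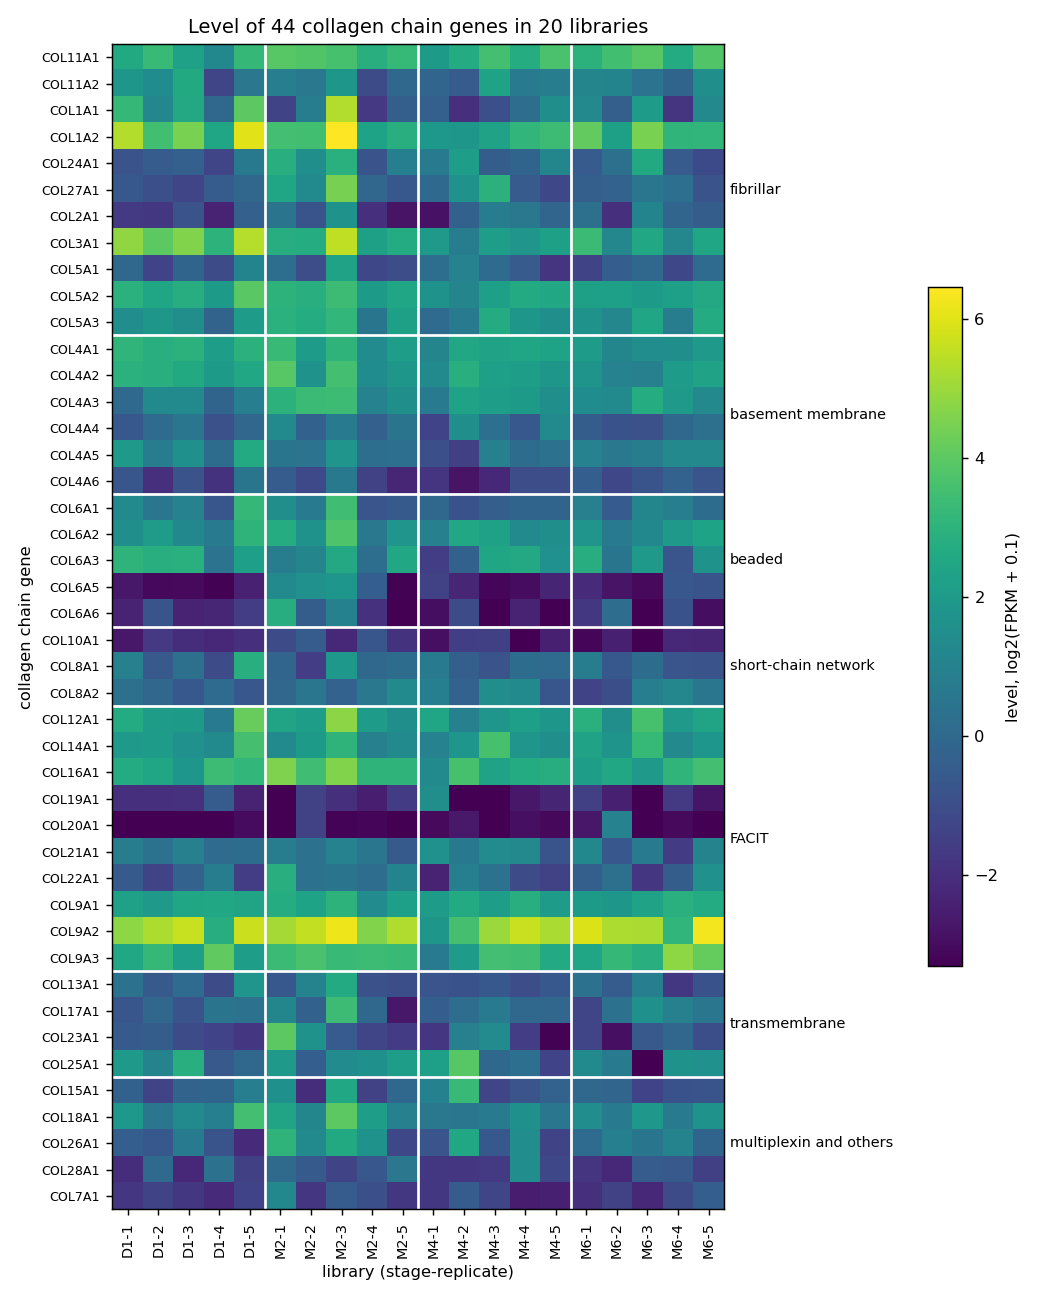
Level of each of the 44 chain genes (rows, grouped by class) in each of the 20 libraries (columns, stage and replicate), as log2(FPKM + 0.1). COL9A2, COL1A2 and COL11A1 are the brightest rows on average (mean log2 level 4.91, 3.50 and 3.08), and M2 replicate 3 is the brightest column, holding the highest value of 19 chains.

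The spread between goats of a stage was wide for these genes. On the log2(FPKM + 0.1) scale the median within-stage SD was 1.05 over the 43 chains and 0.57 over all 16771 genes tested. COL9A1 had the smallest SD of the chains (0.44), and COL1A1 the largest (1.93). M2 replicate 3 held the highest value of 19 chains and M2 replicate 1 that of 7.

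The limma fit called 0 of 43 chains in each of 7 comparisons, at an adjusted p under 0.05 (Benjamini-Hochberg over all 16771 genes) and a |log2 FC| of at least 1. Few genes of any kind were called. In M2 vs. D1, M4 vs. M2, M6 vs. M2 and M6 vs. M4, the share of all genes was 0%. M4 vs. D1 gave 0.0537%, M6 vs. D1 gave 0.00596%, and the mean of the 3 later stages vs. D1 gave 0.0596%. Hence differences are given below as values with their SE, and chains with an unadjusted p under 0.05 are counted beside the share of all genes that did so.

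In M2 vs. D1, 8 of 43 chains (18.6%) had an unadjusted p under 0.05, all of them higher in M2, against 15.6% of all genes, of which 6.25% were higher and 9.35% lower. In M4 vs. D1, 1 chain was higher (2.5% of all genes) and 5 were lower (6.21%), out of 8.71% of all genes in both directions. M6 vs. D1 gave 2 higher (3.33%) and 3 lower (4.08%), out of 7.41%. From M2 onwards, M4 vs. M2 gave 7 lower chains (4.72% of all genes lower, 8.68% in both directions), M6 vs. M2 gave 4 lower chains (2.89% and 6.14%) and M6 vs. M4 gave 1 higher chain (3.99% higher, 6.87% in both directions). For the later stages vs. D1, 5 chains were higher (4.71%) and 4 lower (7.04%), out of 11.7% of all genes. The comparisons that name D1 share the D1 libraries, and those that name M2 share the M2 libraries.

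The median log2 FC of the chains was above 0 for M2 against D1 and below 0 for both later stages against M2. It was 0.38 in M2 vs. D1 (29 of 43 higher), -0.73 in M4 vs. M2 (36 of 43 lower) and -0.49 in M6 vs. M2 (35 of 43 lower). Over all genes these medians were -0.07, -0.02 and 0.02, with 7509 of 16771 higher, 8672 lower and 8065 lower. These comparisons share the M2 libraries, of which replicate 3 held the highest value of 19 chains and replicate 1 that of 7. Against D1, the chains stood at -0.16 in M4 and -0.12 in M6, next to -0.07 and -0.05 for all genes.

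**Figure D2:**
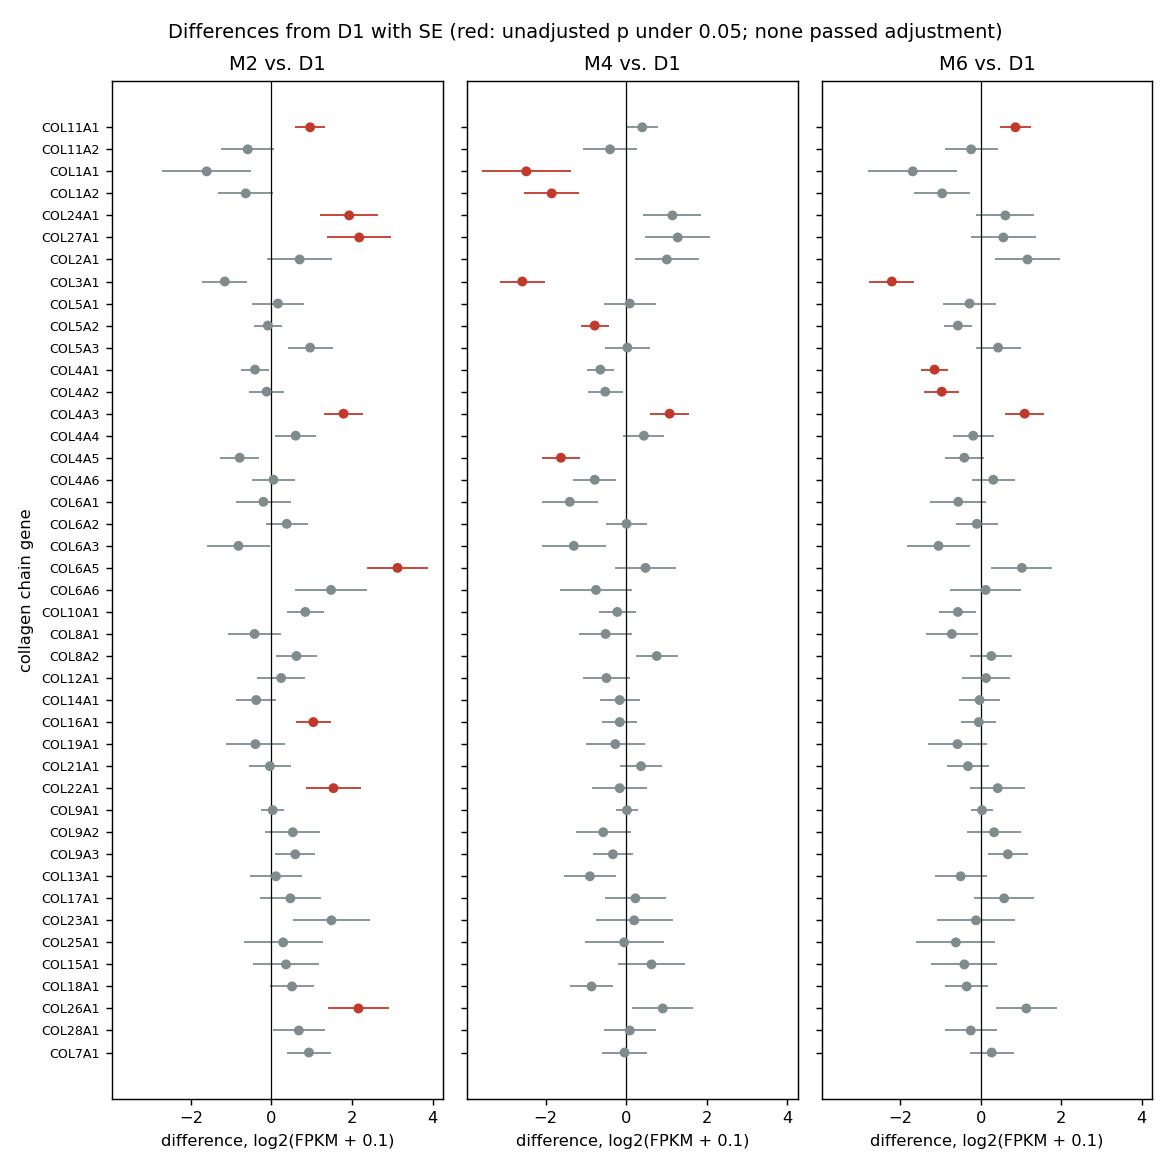
Difference in log2(FPKM + 0.1) from D1 for each of the 43 tested chains in M2, M4 and M6 (points, with SE from limma, 5 libraries per stage). Red marks an unadjusted p under 0.05; COL3A1 lies lowest in M4 and M6, COL6A5 highest in M2, and no chain passed the adjustment.

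Of the fibrillar chains, COL3A1 stood farthest from D1 in M4 and M6, whereas COL27A1, COL24A1 and COL1A1 lay farther from it in M2. COL3A1 (gene ID 100860938, chromosome 2, 129111216 to 129151444, ARS1.2) encodes the sole chain of type III collagen, which is abundant in pliable tissue such as vessel walls. The 5 D1 libraries held 28.5, 15.9, 24.1, 7.85 and 41.0 FPKM of COL3A1, and the 5 M2 libraries 6.75, 6.61, 45.9, 4.62 and 6.36 FPKM. In M4, COL3A1 was at 3.72, 1.64, 4.22, 3.30 and 4.69 FPKM, and in M6 at 10.1, 2.23, 5.53, 2.22 and 5.35 FPKM. Every M4 library was thus below every D1 library, M6 overlapped D1 through 1 library, and 4 of the 5 M2 libraries lay below D1 while M2 replicate 3 lay above it. Groups that did not overlap with M4 lower than D1 made up 1.52% of all genes.

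The log2 FC of COL3A1 was -1.16 in M2, -2.58 (SE 0.56) in M4 and -2.21 (SE 0.56) in M6 vs. D1, and -1.99 (SE 0.46) for the later stages together. In limma the adjusted p of COL3A1 was 0.0885 for M4, 0.284 for M6 and 0.0841 for the later stages. The M4 vs. D1 difference of COL3A1 had an adjusted p of 0.0292 in limma without D1 replicate 4 and 0.0275 without M2 replicate 3, and for the later stages these values were 0.0343 and 0.039. With either of these libraries left out, COL3A1 was called in both comparisons, and the others left out in turn did not change its call. Library quality weights in limma gave COL3A1 an adjusted p of 0.0406 for M2, 0.0104 for M4, 0.0169 for M6 and 0.0012 for the later stages, each a call, in a fit that also raised the genes called among all 16771 from 0, 9, 1 and 10 to 148, 65, 95 and 223. Other alternatives went the other way. Over all of them the adjusted p of COL3A1 in limma reached 0.268 for M4 (without D1 replicate 3), and 1 for M6 and the later stages (replicate block with the mapping rate as a covariate).

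Type I collagen, the main fibril of skin, bone and meninges, is a heterotrimer of the products of COL1A1 and COL1A2. COL1A2 held 40.4, 11.2, 22.3, 5.50 and 64.6 FPKM in D1, and 11.5, 11.1, 88.3, 5.00 and 6.90 FPKM in M2. In M4 it was at 3.60, 3.53, 4.89, 8.55 and 10.4 FPKM, and in M6 at 17.1, 4.64, 22.3, 8.48 and 8.54 FPKM. The stages overlapped, with D1 replicate 5 and M2 replicate 3 far above the rest. The log2 FC of COL1A2 in M4 vs. D1 was -1.85 (SE 0.69, adjusted p = 0.462 in limma).

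COL1A1 followed the same libraries at a lower level. It ran from 0.863 to 15.7 FPKM in D1 (median 5.86), from 0.211 to 40.4 in M2 (median 0.685), from 0.149 to 2.84 in M4 (median 0.708) and from 0.181 to 4.19 in M6 (median 2.31). Its M4 vs. D1 log2 FC was -2.48 (SE 1.1, adjusted p = 0.542 in limma), and its M2 vs. D1 log2 FC of -1.61 was the lowest of the chains there, although the M2 mean (8.66 FPKM) was above the D1 mean (6.72 FPKM) through M2 replicate 3. For the later stages vs. D1, COL1A1 was called with library quality weights (log2 FC -2.30, adjusted p = 0.0387 in limma). COL1A1 was below COL1A2 in 20 of 20 libraries, with a median log2 ratio of -2.58 (range -4.93 to -1.13).

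Type V and XI chains are built into the core of fibrils and help set their width. Against D1, COL5A2 and COL11A1 had differences of opposite sign. COL5A2, which lies 16693 bp from COL3A1 with no gene between them, had a mean of 7.81 ± 4.55 FPKM in D1, 6.92 ± 2.54 in M2, 4.31 ± 1.72 in M4 and 4.71 ± 0.757 in M6 (SD, n = 5). Its log2 FC in M4 vs. D1 was -0.78 (SE 0.35). Its trimer partner COL5A1 was lower than COL5A2 in 20 of 20 libraries. COL11A1 was at 6.40 ± 3.15 FPKM in D1, 11.5 ± 3.27 in M2, 8.18 ± 3.67 in M4 and 10.9 ± 3.78 in M6 (SD, n = 5). COL11A1 had a log2 FC of 0.96 (SE 0.38) in M2 and 0.86 (SE 0.38) in M6 vs. D1, with adjusted p of 0.245 and 0.638 in limma. With the mapping rate of the library as a covariate the M2 value of COL11A1 was 0.42. COL11A1 was above COL11A2 in 19 of 20 libraries, D1 replicate 3 being the exception.

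COL24A1 and COL27A1, minor fibrillar chains, were higher in M2 mainly through some libraries. COL27A1 was between 0.318 and 0.842 FPKM in the 5 D1 libraries and at 5.36, 2.40, 21.8, 0.832 and 0.553 FPKM in M2. The log2 FC was 2.18 (SE 0.8) for COL27A1 and 1.93 (SE 0.72) for COL24A1. These values were 0.27 and 0.53 with the mapping rate as a covariate. COL27A1 was also the chain with the largest positive difference in M4 vs. D1 (1.28, SE 0.8), and COL2A1, the cartilage collagen, that in M6 vs. D1 (1.16, SE 0.8) and M6 vs. M2 (0.46, SE 0.8). None of these passed the adjustment.

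**Figure D3:**
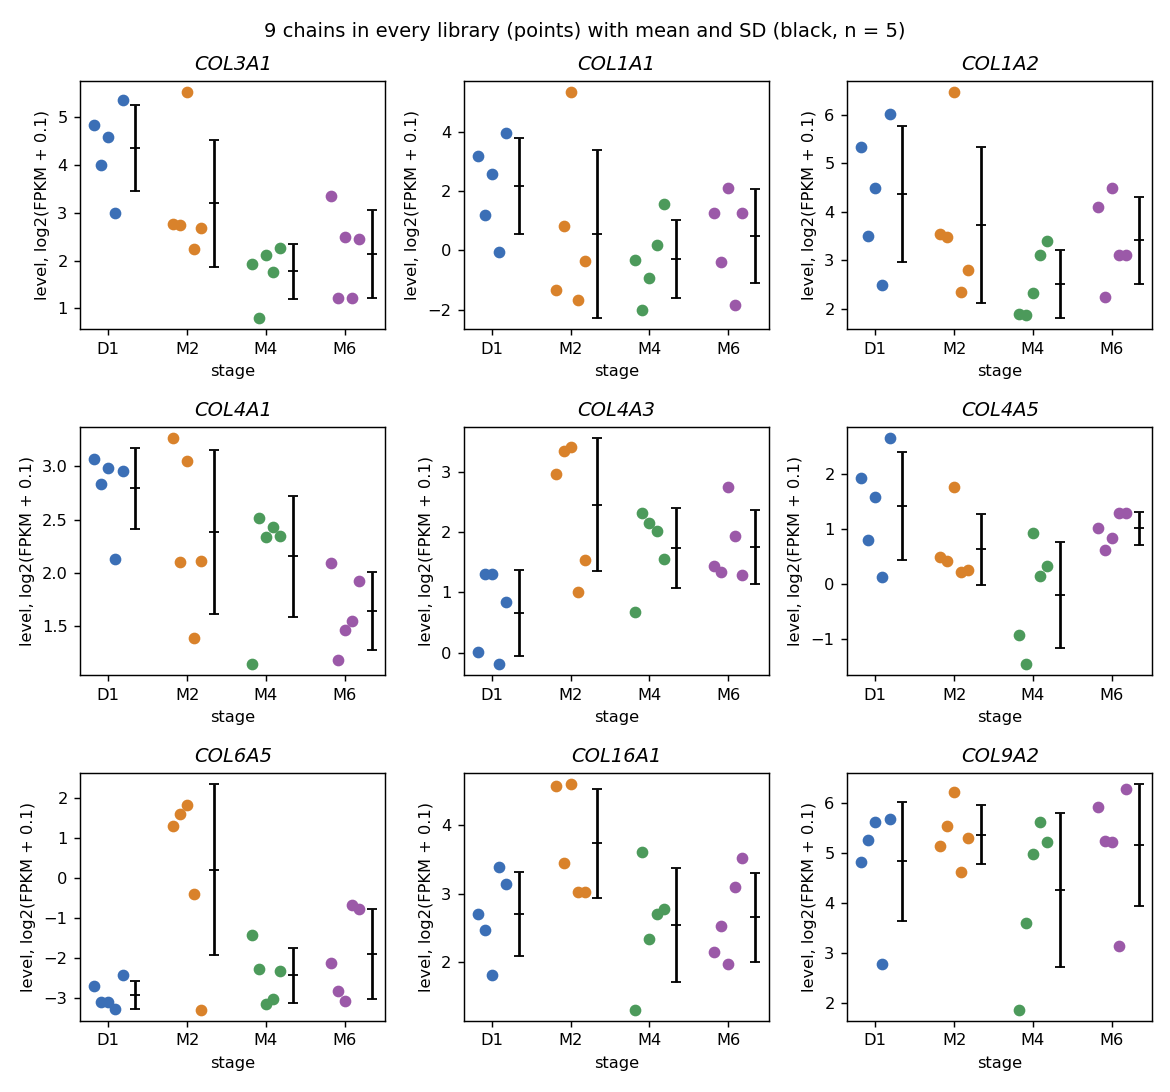
Level of 9 chains in each library by stage, as log2(FPKM + 0.1), with points for the 5 libraries of a stage in replicate order and the black bar for the mean and SD. For COL3A1 all M4 points lie below all D1 points, for COL4A1 all M6 points lie below all D1 points, and for COL6A5 the M2 points run from the lowest to the highest of the plot.

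Among the basement membrane chains, COL4A1 and COL4A2 varied together. Their products form the main type IV network of vessel basement membranes, and the genes lie next to each other on chromosome 12 with a gap of 110 bp (COL4A2 from 1145089 to 1301982, COL4A1 from 1302093 to 1432028, ARS1.2). COL4A1 was at 8.28, 7.02, 7.79, 4.29 and 7.65 FPKM in D1, and at 4.16, 2.18, 2.67, 2.83 and 3.69 FPKM in M6. All M6 libraries were below all D1 libraries, by a narrow gap between 4.16 and 4.29 FPKM, a pattern found in 1.48% of all genes. M2 (2.52 to 9.50 FPKM) and M4 (2.12 to 5.62 FPKM) overlapped both.

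The log2 FC of COL4A1 in M6 vs. D1 was -1.15 (SE 0.34, adjusted p = 0.437 in limma), and that of COL4A2 was -0.97 (SE 0.43, adjusted p = 0.638). With library quality weights COL4A1 was called in M6 vs. D1 (log2 FC -1.17, adjusted p = 0.0197 in limma). COL4A2 had a mean of 6.09 ± 1.41 FPKM in D1, 7.09 ± 5.65 in M2, 4.37 ± 1.67 in M4 and 3.21 ± 1.35 in M6 (SD, n = 5). The log2 ratio of COL4A1 to COL4A2 stayed between -0.64 and 0.53 in the 20 libraries (median 0.14). Its within-stage SD of 0.37 was smaller than that of either gene (0.54 and 0.73), so the chains deviated together from goat to goat.

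COL4A3, COL4A4 and COL4A5 give the type IV network best known from the kidney filter, and COL4A5 also pairs with COL4A6. COL4A3 was at 0.912, 2.38, 2.38, 0.781 and 1.70 FPKM in D1 and at 7.69, 10.1, 10.5, 1.92 and 2.81 FPKM in M2. In M4 it ran from 1.49 to 4.88 FPKM and in M6 from 2.34 to 6.58 FPKM. Each later stage was higher in the mean than D1 but overlapped it. The log2 FC of COL4A3 vs. D1 was 1.79 (SE 0.48) in M2, 1.08 (SE 0.48) in M4 and 1.09 (SE 0.48) in M6, and 1.32 (SE 0.39) for the later stages (adjusted p = 0.198 in limma). It was the chain with an unadjusted p under 0.05 in all 4 comparisons with D1. With the mapping rate as a covariate the log2 FC of COL4A3 was 0.82 in M2, 0.40 in M4 and 0.41 in M6.

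COL4A4 lies 34 bp from COL4A3 and had a log2 FC of 0.60 (SE 0.51) in M2, 0.44 (SE 0.51) in M4 and -0.19 (SE 0.51) in M6 vs. D1. COL4A3 exceeded COL4A4 in 20 of 20 libraries (median log2 ratio 1.46). COL4A5, on the X chromosome, had its highest mean in D1, with 3.10 ± 2.05 FPKM in D1, 1.60 ± 0.953 in M2, 0.931 ± 0.616 in M4 and 1.95 ± 0.41 in M6 (SD, n = 5). COL4A5 had a log2 FC of -1.62 (SE 0.48, adjusted p = 0.296 in limma) in M4 vs. D1 and 1.21 (SE 0.48, adjusted p = 0.7) in M6 vs. M4. The mean log2 ratio of COL4A5 to COL4A3 was therefore 0.76 in D1, -1.82 in M2, -1.94 in M4 and -0.73 in M6. COL4A5 was above COL4A6 in 20 of 20 libraries. For the later stages vs. D1, COL4A5 was called with library quality weights (log2 FC -1.13, adjusted p = 0.0333 in limma).

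Of the beaded-filament chains of type VI collagen, which link cells to the surrounding matrix, COL6A2 (4.02 FPKM), COL6A3 (3.78 FPKM) and COL6A1 (2.12 FPKM) had the highest means. COL6A1 was lower than its neighbour COL6A2 in 19 of 20 libraries. In M4 vs. D1, COL6A1 had a log2 FC of -1.40 (SE 0.69) and COL6A3 of -1.30 (SE 0.79), while COL6A2 was near 0. COL6A6 ran from 0 to 6.75 FPKM in M2 and from 0 to 0.378 FPKM in M4.

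COL6A5 (chromosome 1, 151692840 to 151856776) had the largest log2 FC of any chain. It was below 0.1 FPKM in all 5 D1 libraries (0.00379 to 0.088 FPKM), and at 2.38, 2.96, 3.46, 0.662 and 0.00302 FPKM in M2. In M4 it ran from 0.0131 to 0.276 FPKM and in M6 from 0.0184 to 0.525 FPKM. M2 replicates 1 to 4, in other words, stood above every library of the other stages, and the remaining M2 library was the lowest of the 20. The log2 FC of COL6A5 was 3.13 (SE 0.76, adjusted p = 0.136 in limma) in M2 vs. D1, -2.64 (SE 0.76, adjusted p = 0.472) in M4 vs. M2 and -2.11 (SE 0.76, adjusted p = 0.746) in M6 vs. M2. Without M2 replicate 5, COL6A5 was called in limma in M2 vs. D1 (log2 FC 4.00, adjusted p = 0.0205) and in M4 vs. M2 (-3.52, adjusted p = 0.0388). Because D1 lies under the pseudocount, the M2 vs. D1 value was 1.28 with a pseudocount of 1 FPKM and 4.33 with 0.01 FPKM.

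FACIT chains coat fibrils or, as type IX collagen, link them to other matrix. The 3 type IX genes, whose products form a heterotrimer in cartilage, were all expressed but at unlike levels and with unlike patterns. COL9A1 was the steadiest of all chains, at 4.93 ± 0.762 FPKM in D1, 5.32 ± 2.06 in M2, 5.10 ± 1.36 in M4 and 5.18 ± 1.63 in M6 (SD, n = 5), and its log2 FC in M2, M4 and M6 vs. D1 was 0.03, 0.02 and 0.03, each with an SE of 0.28. COL9A2 was above COL9A1 in 19 of 20 libraries and above COL9A3 in 18 of 20.

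COL9A2 varied over a wide range within each stage. It was at 28.0, 38.4, 49.4, 6.80 and 51.1 FPKM in D1, and at 35.3, 46.8, 74.8, 24.4 and 39.3 FPKM in M2. In M4 it was at 3.54, 12.0, 31.7, 49.4 and 37.3 FPKM, and in M6 at 60.9, 37.9, 37.0, 8.67 and 78.3 FPKM. Values of 12.0 FPKM or less thus occurred in D1, M4 and M6 but not in M2, and no comparison of COL9A2 reached an unadjusted p under 0.05, with a log2 FC of 0.53 in M2, -0.57 in M4 and 0.33 in M6 vs. D1 (each SE 0.68).

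The low libraries of COL9A2 were those with low levels of oligodendrocyte genes. The summed FPKM of MOG, MAG, CNP and MOBP, which are genes of the myelin-forming cell, was 171 in D1 replicate 4, 390 in M2 replicate 4, 90.1 in M4 replicate 1, 182 in M4 replicate 2 and 130 in M6 replicate 4, and from 785 to 2720 in the other 15. These 5 libraries were also the lowest 5 for COL9A2. The same held for COL11A2, COL5A3 and COL6A3, making 4 of 43 chains (9.3%), against 0.924% of all genes tested. At least 4 of the 5 libraries were shared by 7 of 43 chains (16.3%), against 4.82% of all genes. The same 5 libraries also had the lowest fibrillar sums, from 20.4 to 27.2 FPKM, with the next library at 30.2 FPKM. The other class sums did not match in full, since M4 replicate 2 ranked 6 from the highest for basement membrane chains and 13 for the other chains. These comparisons were chosen after the values were seen, and whether oligodendrocyte content has a part in these levels was not tested.

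COL16A1, which is known to associate with fibrils and with integrins, was the FACIT chain with the largest M2 difference among the abundant ones. It was at 6.39, 5.45, 3.40, 10.4 and 8.75 FPKM in D1 and at 23.7, 10.8, 24.2, 8.06 and 8.08 FPKM in M2. M4 (2.38 to 12.1 FPKM) and M6 (3.82 to 11.4 FPKM) overlapped D1, and M2 replicates 1 and 3 stood above the other 18 libraries. COL16A1 had a log2 FC of 1.04 (SE 0.43) in M2 vs. D1, -1.19 (SE 0.43) in M4 vs. M2 and -1.08 (SE 0.43) in M6 vs. M2, with adjusted p of 0.258, 0.509 and 0.746 in limma. Without M2 replicates 1 and 3 the M2 vs. D1 value of COL16A1 was 0.47, and it was 0.03 with the mapping rate and the replicate block in the fit.

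The remaining FACIT chains gave smaller or less regular differences. COL12A1, a chain of tissues under tension, averaged 6.35 FPKM and was at 18.1 FPKM in D1 replicate 5 and 27.0 FPKM in M2 replicate 3, while the other 18 libraries did not exceed 12.1 FPKM. COL22A1 had a log2 FC of 1.54 (SE 0.69) in M2 vs. D1, with M2 replicate 1 at 6.96 FPKM and the next M2 library at 2.04 FPKM. COL21A1 had the largest positive difference in M4 vs. M2, of only 0.41 (SE 0.53). COL14A1 averaged 4.55 FPKM and its highest values were 12.1 FPKM in M4 replicate 3 and 11.8 FPKM in D1 replicate 5.

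The short-chain network genes were low. COL8A1 and COL8A2, whose products occur in the matrix of vessels and of the eye, averaged 1.32 and 1.26 FPKM. COL10A1, the collagen of hypertrophic cartilage, averaged 0.171 FPKM, and its M6 libraries (0 to 0.113 FPKM) did not overlap its M2 libraries (0.114 to 0.621 FPKM), which was so in 0.244% of all genes in this direction. These groups nearly touched, and the log2 FC of COL10A1 was -1.41 (SE 0.46, adjusted p = 0.746 in limma). No M6 value was far above the pseudocount of 0.1 FPKM, and over the alternatives this log2 FC ran from -2.65 to -0.34.

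Transmembrane chains carry a collagen domain outside the cell, and COL25A1 is the neuronal one, first known from amyloid plaques. COL25A1 averaged 3.03 FPKM, from 0 in M6 replicate 3 to 15.1 FPKM in M4 replicate 2, and no stage stood apart. COL17A1 (1.54 FPKM), COL23A1 (1.45 FPKM) and COL13A1 (1.13 FPKM) each owed their highest value to an M2 library, of 10.3 FPKM in replicate 3, 15.7 FPKM in replicate 1 and 6.24 FPKM in replicate 3. None of the 4 had an unadjusted p under 0.05 in any comparison.

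Of the multiplexins, vessel-associated collagens that carry sugar side chains, COL18A1, the source of endostatin, averaged 3.56 FPKM and COL15A1 1.52 FPKM. COL18A1 was at 4.13 ± 4.20 FPKM in D1, 5.94 ± 5.88 in M2, 1.70 ± 0.675 in M4 and 2.49 ± 0.947 in M6 (SD, n = 5), with a log2 FC of -1.36 (SE 0.54, adjusted p = 0.535 in limma) in M4 vs. M2. COL15A1 had the lowest log2 FC in M6 vs. M4 (-1.04, SE 0.82), owing to 9.84 FPKM in M4 replicate 2. COL26A1 averaged 2.00 FPKM and had a log2 FC of 2.16 (SE 0.76, adjusted p = 0.207 in limma) in M2 vs. D1, which was 1.03 with the mapping rate as a covariate and 0.73 with library quality weights. It was at 8.15, 2.47, 6.09, 3.18 and 0.337 FPKM in M2 and from 0.131 to 1.52 FPKM in D1.

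Summed by class, the ranges of the stages overlapped in each class, and differences between the sums were not tested. The 11 fibrillar chains summed to 81.2 ± 50.7 FPKM in D1, 85.6 ± 91.5 in M2, 34.5 ± 11.6 in M4 and 44.6 ± 16.6 in M6 (SD, n = 5). The 6 basement membrane chains summed to 19.2 ± 5.01, 22.9 ± 12.9, 15.1 ± 5.01 and 13.1 ± 2.51 FPKM in the same order. The other 27 chains summed to 96.4 ± 33.5, 135 ± 67.9, 81.3 ± 25.5 and 104 ± 29.1 FPKM. The log2 ratio of the M2 mean to the D1 mean was 0.08 for fibrillar chains, 0.26 for basement membrane chains and 0.49 for the other chains. Without M2 replicate 3 these ratios were -0.84, 0.03 and 0.17, and without M2 replicate 1 they were 0.16, 0.03 and 0.44. The fibrillar ratio was 0.46 without D1 replicate 5 and -0.16 without D1 replicate 4.

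**Figure D4:**
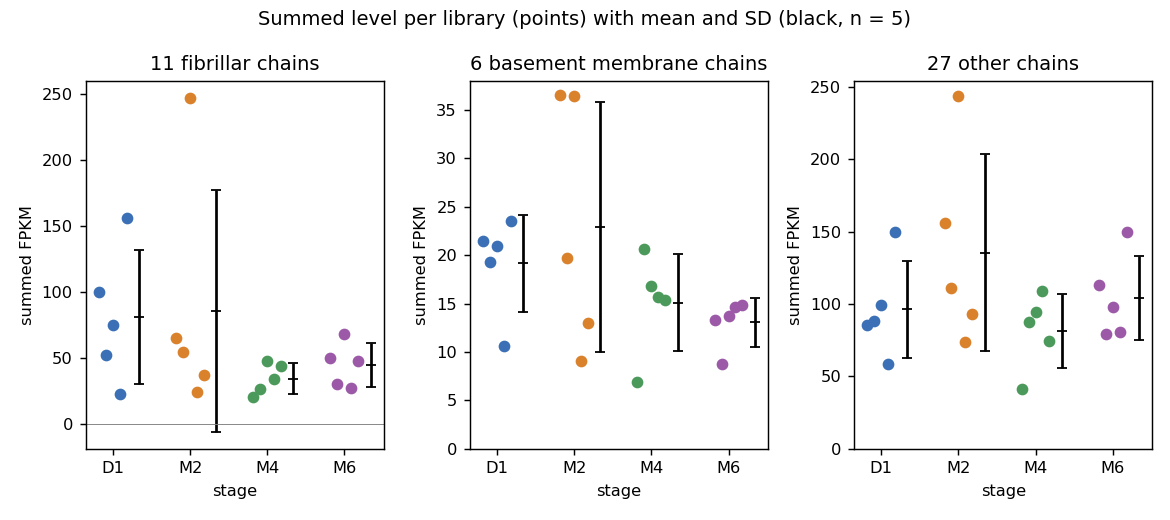
Summed FPKM of the 11 fibrillar, 6 basement membrane and 27 other chains in each library (points, in replicate order within a stage), with the mean and SD in black. M2 replicate 3 is the highest fibrillar point at 247 FPKM, and the basement membrane points of M2 run from 9.07 to 36.5 FPKM.

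The 2 libraries with the highest fibrillar sums also had the highest levels of fibroblast genes. The 8 markers of meningeal and perivascular fibroblasts, among them DCN (decorin) and LUM (lumican), none of them a collagen and DCN, LUM and OGN also counted with the proteoglycans, summed to 303 FPKM in D1 replicate 5 and 200 FPKM in M2 replicate 3, and to between 52.3 and 139 FPKM in the other 18 libraries. These were the libraries with fibrillar sums of 156 and 247 FPKM, while the others held 20.4 to 99.7 FPKM. Beyond them the match was loose, since M6 replicate 1, next in the fibroblast sum with 139 FPKM, had a fibrillar sum of 49.8 FPKM. By stage, the fibroblast sum ran from 65.8 to 303 FPKM in D1 (median 109), from 77.2 to 200 in M2 (median 86), from 52.3 to 101 in M4 (median 80.8) and from 69.5 to 139 in M6 (median 74.3). Between M4 and D1, and between the later stages and D1, 2 of the 8 markers, LUM and PDGFRA, were lower at an unadjusted p under 0.05, against 6.21% and 7.04% of all genes, and none was called. PDGFRA had the highest mean of the 8 (36.5 FPKM) and was highest in D1 replicate 1 (69.1 FPKM). DCN, LUM, SLC6A13, SLC13A3, OGN and ISLR were highest in D1 replicate 5 and ITIH5 in M2 replicate 3. Whether the LUM and PDGFRA differences were ones of fibroblasts was not tested, and PDGFRA was kept in the fibroblast sums. The 8 markers of mural cells, the contractile cells of vessel walls, summed to 262 FPKM in D1 replicate 5, 219 FPKM in M2 replicate 1 and 165 FPKM in M2 replicate 3, and to between 75.3 and 152 FPKM in the other 17 libraries. M2 replicate 3 also had the highest endothelial sum (138 FPKM of 6 markers) and the highest choroid plexus sum (27.9 FPKM of 5 markers), of which TTR gave 23.0 FPKM. The part of these cell types in the fibrillar levels was not tested.

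The libraries highest in COL3A1 were in part those highest in the fibroblast markers. Of the 5 libraries with the highest COL3A1, 4 were among the 5 with the highest fibroblast sum. Except for M2 replicate 3 these were D1 libraries (replicates 1, 2 and 5), so the overlap and the stage were not separated. In D1 replicates 1 and 2, PDGFRA alone gave 69.1 of 135 and 48.1 of 109 FPKM of the fibroblast sum. It gave 29.5 of 104 FPKM in M6 replicate 3 and 28.2 of 101 FPKM in M4 replicate 1. Those libraries thus held more of the other markers, and the place of D1 replicates 1 and 2 among the highest 5 rested on PDGFRA. All overlaps given here were counted with PDGFRA in the sum. COL3A1 shared 2 of 5 libraries with the mural markers and 3 of 5 with the endothelial markers. COL8A1 and COL12A1 also shared 4 of 5 libraries with the fibroblast markers. In all, 3 of 43 chains (6.98%) shared at least 4 libraries with them, against 0.668% of all genes. For the endothelial markers, COL4A1, COL4A5, COL5A2, COL6A1, COL6A2 and COL18A1 shared 4 of 5 libraries, which was 14.0% of chains against 2.15% of all genes. For the mural markers it was 1 of 43 chains (2.33%) against 0.596%. With all 5 libraries required, 0 chains were left for the fibroblast, mural and endothelial markers. These comparisons too were chosen after the values were seen, and the part of these cell types was not tested.

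**Figure D5:**
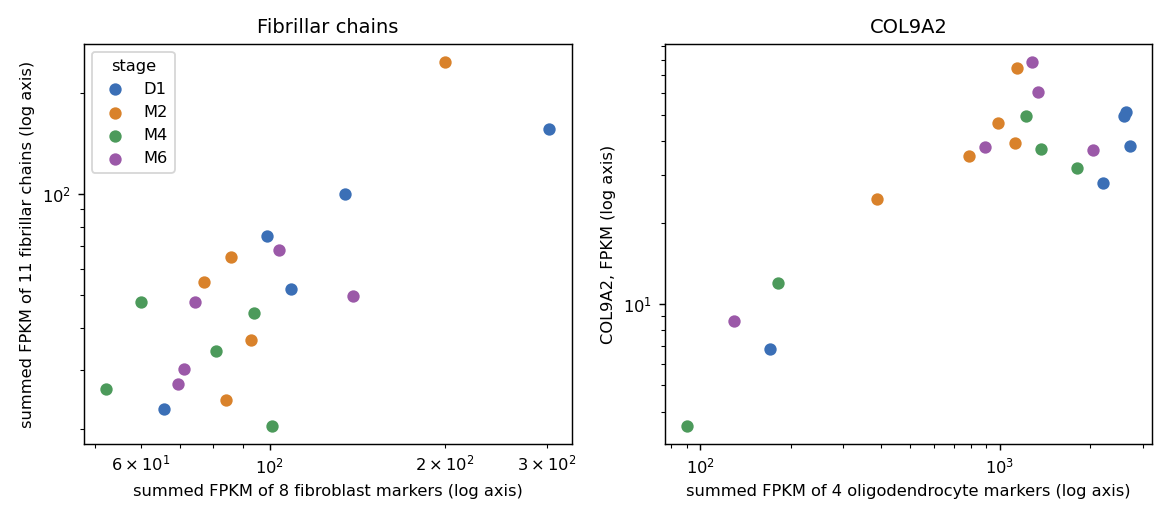
Left, summed FPKM of the 11 fibrillar chains against that of 8 fibroblast markers, and right, COL9A2 against the summed FPKM of 4 oligodendrocyte markers, 1 point per library coloured by stage, all axes on a log scale. The fibrillar sums of 156 and 247 FPKM belong to the libraries with fibroblast sums of 303 and 200 FPKM, and the 5 lowest COL9A2 points are the 5 lowest in oligodendrocyte markers.

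Genes that make, cut and bind collagen were examined next to the chains. None of 27 genes of collagen folding, modification and cleavage, 10 small leucine-rich proteoglycans, 17 basement membrane partners and 10 collagen receptors tested was called by limma in any comparison. In M4 vs. D1, 4 of the 27 processing genes were lower (6.21% of all genes) and 1 higher (2.5%) at an unadjusted p under 0.05. The balance was the other way in M2 vs. D1, with 5 higher (6.25%) and 2 lower (9.35%), and in M6 vs. M4, with 6 higher (3.99%) and 1 lower (2.88%). SERPINH1, the collagen-specific chaperone of the endoplasmic reticulum, had a log2 FC of -1.05 (SE 0.33) in M4 vs. D1 and 1.03 (SE 0.33) in M6 vs. M4. The highest processing genes, PPIB (129 FPKM), a prolyl isomerase, and P4HB (49 FPKM), a subunit of prolyl hydroxylase, had log2 FC of -0.53 and -0.45 in M4 vs. D1. BMP1, the protease that removes the end of fibrillar procollagens, had a log2 FC of 1.45 (SE 0.44) in M2 and 1.08 (SE 0.44) in M4 vs. D1, opposite in sign to COL1A1 and COL3A1.

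Some basement membrane partners were lower in M4 and M6 than in D1. In M4 vs. D1, 5 of 17 were lower at an unadjusted p under 0.05 (6.21% of all genes) and none higher, and in M6 vs. D1, 4 were lower (4.08%) and none higher. In M2 vs. D1 there was none in either direction and the median log2 FC was -0.02, and for the later stages together 2 were lower (7.04%). NID2 (nidogen), which bridges laminin and type IV collagen, had a log2 FC of -1.48 (SE 0.38, adjusted p = 0.184 in limma) in M4 and -1.45 (SE 0.38, adjusted p = 0.327) in M6 vs. D1. The 17 partners had a median log2 FC of -0.43 and -0.49 in these comparisons, next to -0.58 and -0.30 for the 6 type IV chains.

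Among the small leucine-rich proteoglycans, which bind to fibrils, LUM had a log2 FC of -1.12 (SE 0.40) in M4 and -1.02 (SE 0.40) in M6 vs. D1, with adjusted p of 0.44 and 0.617 in limma. Of the receptors, ITGB1 (38.6 FPKM on average), the beta chain of the collagen-binding integrins, had a log2 FC of -0.56 (SE 0.26) in M2 and -0.54 (SE 0.26) in M4 vs. D1. DDR2 (20 FPKM), a receptor tyrosine kinase for fibrillar collagen, had a log2 FC of 0.88 (SE 0.26, adjusted p = 0.446 in limma) in M6 vs. D1.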

How the data were processed

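The hypothalamus of 20 goats was sequenced, with 5 goats at each of 4 stages. The authors trimmed reads with fastp, aligned them with HISAT2 (2.0.5) to the goat genome ARS1.2, assembled transcripts with StringTie (1.3.3b) and deposited an FPKM value per gene and library. Reads behind a value were not recovered, since only 10.3% of 2324 low values were within 0.05 of a whole multiple, so no counting error is given and the spread between goats carries the precision. The mapped read totals that the study gives per library were used only in this check of whole multiples. Names and positions came from RefSeq ARS1.2 (20610 gene IDs matched).

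FPKM below 0.1 in more than 15 libraries removed a gene, and limma (3.58.1, R 4.3.3) with a trend was fitted to log2(FPKM + 0.1) over 16771 genes and all 20 libraries, in place of the study's test on read counts. A fold change on this scale understates that of low genes. Calls needed a Benjamini-Hochberg adjusted p under 0.05 and |log2 FC| of at least 1. The script was tested on simulated data. Alternatives changed the pseudocount, filter, scaling, variance model, library weights, covariates and libraries. Mapping rates from the study's quality table served only as a covariate.

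Named with values were the 3 highest chains per class, the extremes of each comparison, trimer partners and chains with a library far from the rest. Of the related lists, called genes and the highest 2 were to be named. SERPINH1, BMP1, NID2, LUM and DDR2 were chosen after their values were seen, as were the chains with an unadjusted p under 0.05. The members and lists were chosen with earlier results of these data known. COL6A4, P4HA2, LAMB2 and PRL, which the lists name, were not analysed here.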

Additional observations from a re-analysis of the deposited data

Results flagged for a closer look

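A library was picked out where its gap to the nearest of the other 4 libraries of its stage was over 0.71 of the range of the stage (Dixon's critical value for 5). This was so in 39 of 192 groups of 5 (20.3%), where chance gives about 1 in 20 for normally distributed values. FPKM values are skewed to the right, and on the log2(FPKM + 0.1) scale, tried after the data were seen, it was so in 20 of 192 (10.4%). On the FPKM scale 13 of the 39 were M2 replicate 3, 6 were D1 replicate 5 and 4 were M2 replicate 1. All groups share these 20 libraries, so they are not independent.

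In M2 replicate 3 the fibrillar chains COL1A2 (88.3 FPKM, next library 11.5), COL3A1 (45.9, next 6.75), COL1A1 (40.4, next 1.69), COL27A1 (21.8, next 5.36) and COL5A1 (4.89, next 1.07) stood apart, and with them the fibrillar sum (247 FPKM, next 65.1). The same library stood apart for COL12A1 (27.0 FPKM), COL18A1 (16.1), COL6A1 (10.9), COL17A1 (10.3), COL13A1 (6.24), COL8A1 (3.63) and COL4A5 (3.30).

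In D1 replicate 5 the chains far above the other D1 libraries were COL14A1 (11.8 FPKM), COL18A1 (11.5), COL6A1 (9.03), COL8A1 (7.15), COL13A1 (3.35) and COL20A1 (0.0234), of which COL6A1, COL8A1, COL13A1 and COL18A1 stood apart in M2 replicate 3 as well. M2 replicate 1 stood apart for COL23A1 (15.7 FPKM), COL22A1 (6.96), COL6A6 (6.75) and COL7A1 (2.25), none of which was fibrillar.

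M4 replicate 1 was low for COL4A1 (2.12 FPKM, next 4.94) and for the sum of all chains (68.7, next 134), and high for COL19A1 (2.73). M4 replicate 2 was high for COL25A1 (15.1 FPKM), COL15A1 (9.84) and COL6A6 (0.378), M4 replicate 3 for COL14A1 (12.1) and COL11A2 (4.89), and M4 replicate 4 for COL18A1 (2.90) and COL28A1 (2.67). M2 replicate 2 was high for COL9A3 (12.5 FPKM) and COL20A1 (0.279), M6 replicate 2 was high for COL20A1 (1.93) and low for the basement membrane sum (8.72, next 13.3), M6 replicate 3 was high for COL24A1 (6.06) and D1 replicate 4 for COL19A1 (0.626). The causes were not tested.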

How the results depend on the processing

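Counting each alternative once per comparison, over the 7 comparisons, 224 results kept the count of called chains at 0 and 13 did not. With library quality weights the count of called chains was 1 in M2 vs. D1, 1 for M4 and 2 for M6 vs. D1 and 3 for the later stages, which were COL3A1 throughout, COL4A1 in M6 and COL1A1 and COL4A5 for the later stages. In that fit the calls over all genes went from 0, 9, 1 and 10 to 148, 65, 95 and 223 in these comparisons. With the replicate number as a block it was 1 in M4 vs. D1 (COL3A1, adjusted p = 0.0428 in limma) and 1 for the later stages (COL3A1, 0.048). Without M2 replicates 1 and 3, an alternative chosen after the data were seen, it was 1 in M4 vs. D1. Leaving out 1 library gave counts from 0 to 1 in M2 vs. D1, M4 vs. D1, M4 vs. M2 and for the later stages, and 0 in the other comparisons. The sum of basement membrane chains in M2 vs. D1 went from 0.26 to -0.46 (log2) without M2 replicates 1 and 3, and leaving out 1 library gave 0.03 to 0.46. For the fibrillar sum the range was -0.84 to 0.46 and for the other chains 0.17 to 0.71.

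Same-numbered libraries of different stages did not deviate together (30 pairs, median correlation -0.01, 7 over 0.1), and 3 of 20 correlated best with their own number. The numbers were therefore not read as pairs. The block changed no other call of a chain. Over all genes it took the calls from 9 to 7 in M4 vs. D1, from 1 to 0 in M6 vs. D1 and from 10 to 13 for the later stages.

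The number of chains with an unadjusted p under 0.05 depended on single libraries. In M4 vs. D1 it was 6, and 3 without D1 replicate 1, D1 replicate 5 or M4 replicate 2. In M6 vs. D1 it was 5, and 3 without D1 replicate 1, D1 replicate 3 or M6 replicate 2, and 2 without M6 replicate 3. In M4 vs. M2 it was 7, and 4 without M2 replicate 1 or M2 replicate 3, and 11 without M2 replicate 4 or M2 replicate 5. In M6 vs. M2 it was 4, and 2 without M2 replicate 1 or M2 replicate 3, and 9 without M2 replicate 4 or M2 replicate 5. In M6 vs. M4 it was 1, and 0 to 3. For the later stages it was 9, and 5 without D1 replicate 3. In M2 vs. D1 it was 8, and 6 to 11 with 1 library left out, 16 with library quality weights, 4 with the mapping rate as a covariate and 2 with the block as well. In that covariate fit the median of all genes in M2 vs. D1 went from -0.07 to 0.04. The cause was not tested. Of the 40 differences with an unadjusted p under 0.05, none changed sign under any alternative run, but 23 lost over 50% of their size under at least 1 of them, 11 of these with the mapping rate as a covariate. With that covariate and the block, COL16A1 in M2 vs. D1 went from 1.04 to 0.03, COL11A1 from 0.96 to 0.10 and COL24A1 for the later stages from 1.23 to 0.01. The fit with only the libraries compared does not apply to the later stages. The reads behind each FPKM value were not recovered, so a low value could not be given a counting error.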
